A study of Mus musculus with 8 samples.

Results

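The genes described here are the mouse NF-kappaB subunits Nfkb1, Nfkb2, Rel, Rela and Relb together with Nfkbia, Nfkbib, Nfkbie, Tnfaip3 and Traf1, which inhibit the pathway or act in its signalling complexes. They were taken by gene name, every probe of each, which gave 10 genes with 15 of the 55681 probes on the array. After the filter on dim probes, 14 of these 15 probes and 9 of the 10 genes were tested, among 20674 genes in all. Of these, 13738 had a gene symbol, and entries without one are counted in every share and median of all genes below. RNA had been measured on single-colour arrays in the mouse pre-B line 1676, of genotype SLP-65-/- LAT-/-, which lacks a pair of signalling adaptors and grows in the cytokine interleukin-7 (IL-7).

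There were 4 groups of 2 arrays each. In the first, cells carrying a retroviral vector for the human microRNA hsa-miR-125b-1 were cultured for 24 h without IL-7, which is used to induce pre-B cell differentiation, and in the second, cells with a control vector were treated in the same way. The other two groups were miR-125b cells and control cells kept in excess IL-7. All groups shared the disrupted SLP-65 and LAT genes and puromycin selection, and the 2 arrays of a group came from independent experiments with separately generated clones. One established line served as the model throughout.

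NF-kappaB transcription factors are dimers of Rel proteins that IkappaB proteins hold in the cytoplasm until an IkappaB kinase (IKK) marks the inhibitor for destruction. In the canonical branch RelA pairs with the processed product of Nfkb1, and in the non-canonical branch RelB pairs with the processed product of Nfkb2. The pathway induces several of its own inhibitors, among them Nfkbia, Nfkbie and Tnfaip3, and it is known in developing B cells for its part in survival and light-chain rearrangement.

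The mature strand that the vector is meant to supply is shown because its seed, bases 2 to 8, is the stretch by which a microRNA recognises its targets. It is printed 5′ to 3′ from the RefSeq entry of the mouse gene Mir125b-1 on GRCm38.p6, chr9:41581940-41581961, plus strand, with the seed in capitals. In human lymphoma cells TNFAIP3 has been described as a target of this microRNA. No target site was looked for in Tnfaip3 or any other member, and direct targeting in these mouse cells was not tested.
mmu-miR-125b-5p: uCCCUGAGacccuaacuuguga

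The members' promoters were searched for the kappaB consensus, the site of 10 bases that NF-kappaB dimers recognise, on both strands. RefSeq promoters on GRCm38.p6, from 250 bases before to 50 bases after a start, were held for 8 of the 10 members, with 11 starts in all, and Nfkb1 and Relb had no entry. At least 1 match was found in 7 of these 11 promoters, while 8.49% of all 32544 different promoters of that length held a match. By gene, 5 of the 8 members had a match, against 9.55% of 27025 genes. The following 4 promoters are those of members with RNA levels that fell with miR-125b in the absence of IL-7 and that had an entry, each printed 5′ to 3′ on the gene's own strand with the matches in capitals.
Nfkb2 (first start, plus strand, chr19:46304487-46304786): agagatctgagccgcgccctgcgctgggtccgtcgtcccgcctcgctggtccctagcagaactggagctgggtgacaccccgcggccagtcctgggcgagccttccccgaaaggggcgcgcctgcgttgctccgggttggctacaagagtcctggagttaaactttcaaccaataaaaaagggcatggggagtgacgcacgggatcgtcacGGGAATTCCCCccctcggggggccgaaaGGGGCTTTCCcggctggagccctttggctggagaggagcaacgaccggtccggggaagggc
Nfkbia (minus strand, chr12:55492598-55492897): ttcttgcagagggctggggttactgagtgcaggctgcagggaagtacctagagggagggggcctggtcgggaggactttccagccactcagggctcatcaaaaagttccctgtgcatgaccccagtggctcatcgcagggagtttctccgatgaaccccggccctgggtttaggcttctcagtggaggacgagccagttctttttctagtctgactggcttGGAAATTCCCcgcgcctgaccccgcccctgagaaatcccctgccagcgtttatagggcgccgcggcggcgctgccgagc
Nfkbie (plus strand, chr17:45555450-45555749): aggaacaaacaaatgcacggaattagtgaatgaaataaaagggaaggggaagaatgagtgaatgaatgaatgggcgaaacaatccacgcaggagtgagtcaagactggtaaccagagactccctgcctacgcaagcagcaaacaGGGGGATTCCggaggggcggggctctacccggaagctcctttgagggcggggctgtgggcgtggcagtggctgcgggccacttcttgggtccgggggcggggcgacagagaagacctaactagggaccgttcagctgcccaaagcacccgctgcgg
Tnfaip3 (first start, minus strand, chr10:19015361-19015660): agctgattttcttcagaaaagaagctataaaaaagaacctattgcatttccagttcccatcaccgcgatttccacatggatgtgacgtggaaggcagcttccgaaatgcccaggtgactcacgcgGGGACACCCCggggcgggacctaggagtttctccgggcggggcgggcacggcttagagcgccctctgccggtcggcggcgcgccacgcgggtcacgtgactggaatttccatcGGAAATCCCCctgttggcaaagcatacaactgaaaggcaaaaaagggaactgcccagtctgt

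Counted from the start, the Nfkb2 promoter held GGGAATTCCC at bases -39 to -30, a second match shifted by 1 base that shares its letters, and GGGGCTTTCC at -11 to -2. The other 2 Nfkb2 starts had matches as well, one of which, GGGACTTTCC, lies where the windows of both starts overlap and was counted for each. The Nfkbia promoter held GGAAATTCCC at -29 to -20, and the Nfkbie promoter GGGGGATTCC at -106 to -97. At the first Tnfaip3 start, GGAAATCCCC lay at -12 to -3 and GGGACACCCC farther upstream, and at its second start there was no match. Rel, which was not measurable on these arrays, held GGGAAATCCC at -92 to -83 with a second match shifted by 1 base. The windows of Rela, Nfkbib and Traf1 held no match. A match describes letters only, and binding was not measured.

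**Figure D1:**
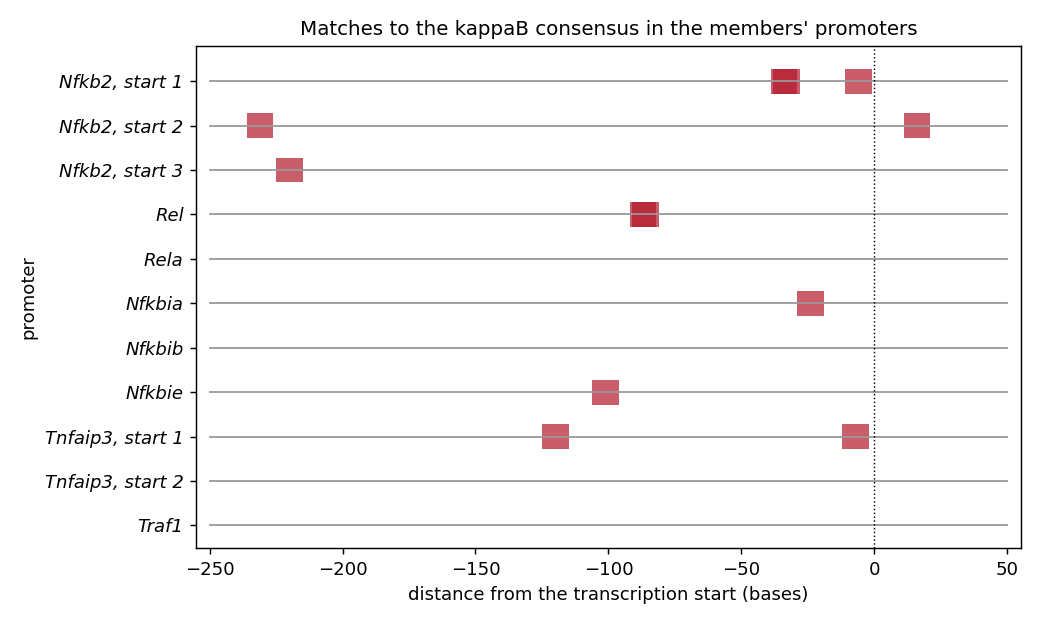
Matches to the kappaB consensus (red blocks, darker where 2 matches overlap) in 11 promoters of 8 members, with the distance from the transcription start in bases on the horizontal axis and 1 promoter per row. Nfkb2, Rel, Nfkbia, Nfkbie and the first start of Tnfaip3 have matches, and Rela, Nfkbib, Traf1 and the second start of Tnfaip3 have none.

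Arrays of a group correlated across genes at r = 0.994 to 0.996, and between 47.7% and 54.8% of probes were well above background on an array. All 4 arrays without IL-7 lay on 1 slide and all 4 arrays with IL-7 on another. An effect of withdrawing IL-7 and one of slide or scan therefore cannot be told apart. Cells with miR-125b and control cells were compared within a slide, but in different columns of it. Control arrays lay in columns 1 and 2 without IL-7 and column 1 with it. The miR-125b arrays lay in columns 3 and 4 without IL-7 and column 3 with it, so vector and slide column cannot be told apart either. Of 12 pre-B cell markers, 11 were well above background on all 8 arrays. Of 10 myeloid, 9 T and NK and 8 erythroid and stromal markers, 4, 4 and 2 were. The myeloid genes among these were Csf3r, Itgam, Csf1r and Elane, and the T and NK genes were Cd3e, Cd4, Lck and Klrb1c. Cd8a was above background on 4 arrays, while S100a8, S100a9, Cd3d and Cd3g were above it on 0. As a multiple of the array's 75th percentile, the summed signal of the myeloid markers was 173.6 in miR-125b cells and 184.7 in control cells without IL-7, and 161.7 in miR-125b cells and 182.4 in control cells with IL-7. That of the T and NK markers was 6.74 in miR-125b cells and 8.18 in control cells without IL-7, and 6.07 in miR-125b cells and 7.86 in control cells with IL-7. Both sums were lower in miR-125b cells in each medium, but Csf3r made up most of the myeloid sum. The pre-B sum was also lower, at 1168 against 1199 without IL-7 and 1521 against 1528 with it. The erythroid and stromal sum was higher in miR-125b cells, at 0.398 against 0.305 without IL-7 and 0.300 against 0.276 with it. The part of these sums in the results was not tested. Blnk (SLP-65) and Lat probes were above background on all 8 arrays, but which part of either gene was deleted is not given in the sources used here, so these probes do not check the genotype.

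Levels are log2 ratios of a probe's signal to the 75th percentile of its array, so a level of 0 equals that percentile, and levels of different probes are not comparable. In these bulk samples, fewer cells that express a gene and less RNA per cell cannot be told apart. Each pair of values below gives the first and the second array of a group.

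Rela encodes the main activating subunit of the canonical branch, and its probe lies at chr19:5648070-5648129 (mm9, as are all probe positions here). Its level was 5.20 and 5.33 in miR-125b cells and 5.46 and 5.51 in control cells without IL-7. In the presence of IL-7 it was 5.51 and 5.46 in miR-125b cells and 5.72 and 5.52 in control cells. The miR-125b arrays were lower on each slide, by less than the test could call, and all 8 values lay close together.

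Nfkb1 encodes the precursor of RelA's usual partner. At chr3:135254550-135254609 its level was 1.73 and 1.73 in miR-125b cells and 1.72 and 1.72 in control cells without IL-7. In IL-7 medium it was 1.87 and 1.86 in miR-125b cells and 1.87 and 1.89 in control cells. No other member was as even between the vectors in both media as Nfkb1, while the arrays without IL-7 were all slightly lower than those with it.

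Rel encodes c-Rel, the subunit most used by mature B cells. On 0 of the 8 arrays was its only probe well above background, so Rel was not tested, and its RNA was below what these arrays could measure at that probe. The annotated position covers only 15 bases of the probe, at chr11:23641729-23641743.

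Nfkb2 encodes the precursor of RelB's partner. Its probe, spanning chr19:46386146-46386285, read 1.57 and 1.47 in miR-125b cells and 2.30 and 2.41 in control cells without IL-7. With IL-7 it read 1.27 and 1.33 in miR-125b cells and 1.44 and 1.56 in control cells. The 2 control arrays without IL-7 stood apart as the highest of the 8, and the miR-125b arrays without IL-7 overlapped the control arrays with IL-7.

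Relb encodes the activating subunit of the non-canonical branch. At chr7:20191722-20191781 its level was 1.23 and 1.25 in miR-125b cells and 2.28 and 2.44 in control cells without IL-7. With IL-7 it was -0.00028 and -0.21 in miR-125b cells and 0.28 and 0.36 in control cells. The 4 groups did not overlap, and their order was control without IL-7, miR-125b without IL-7, control with IL-7 and miR-125b with IL-7, from high to low.

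Nfkbia encodes IkappaB-alpha, the inhibitor that is broken down and resynthesised fastest. Its probe, spanning chr12:56590945-56591440, read 5.60 and 5.53 in miR-125b cells and 6.12 and 6.15 in control cells without IL-7. With IL-7 it read 5.35 and 5.12 in miR-125b cells and 5.70 and 5.58 in control cells. The miR-125b arrays were lower than the control arrays on each slide, and the miR-125b arrays without IL-7 overlapped the control arrays with IL-7.

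Nfkbie encodes IkappaB-epsilon, an inhibitor that is prominent in B cells. At chr17:45700000-45700059 its level was 3.15 and 3.05 in miR-125b cells and 3.53 and 3.64 in control cells without IL-7. In the presence of IL-7 it was 2.86 and 2.65 in miR-125b cells and 2.91 and 2.86 in control cells. The vectors were clearly separated without IL-7 and nearly met with it.

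Nfkbib encodes IkappaB-beta, a more stable inhibitor. At chr7:29544160-29544219 its level was 2.53 and 2.58 in miR-125b cells and 2.63 and 2.69 in control cells without IL-7. With IL-7 it was 2.86 and 3.00 in miR-125b cells and 2.97 and 2.87 in control cells. Here the arrays without IL-7 were the lower ones, unlike those of the other IkappaB genes, and the vectors overlapped with IL-7.

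Tnfaip3 encodes the ubiquitin-editing enzyme that shuts off signalling to IKK. At chr10:18720776-18720835 its level was 0.23 and 0.25 in miR-125b cells and 1.37 and 1.30 in control cells without IL-7. With IL-7 it was -1.22 and -0.66 in miR-125b cells and -0.49 and -0.57 in control cells. The vectors did not overlap in either medium, although the 2 miR-125b arrays with IL-7 differed from each other more than those of any other group for this gene.

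Traf1 encodes an adaptor that binds TNF receptor complexes and is itself a known NF-kappaB target. Its dim probe, at chr2:34798882-34798941, was well above background on all 8 arrays, with a level of -3.24 and -3.25 in miR-125b cells and -2.84 and -2.52 in control cells without IL-7. In IL-7 medium it was -4.02 and -4.14 in miR-125b cells and -3.54 and -3.69 in control cells. The groups did not overlap, and the miR-125b arrays were the lower ones in each medium.

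**Figure D2:**
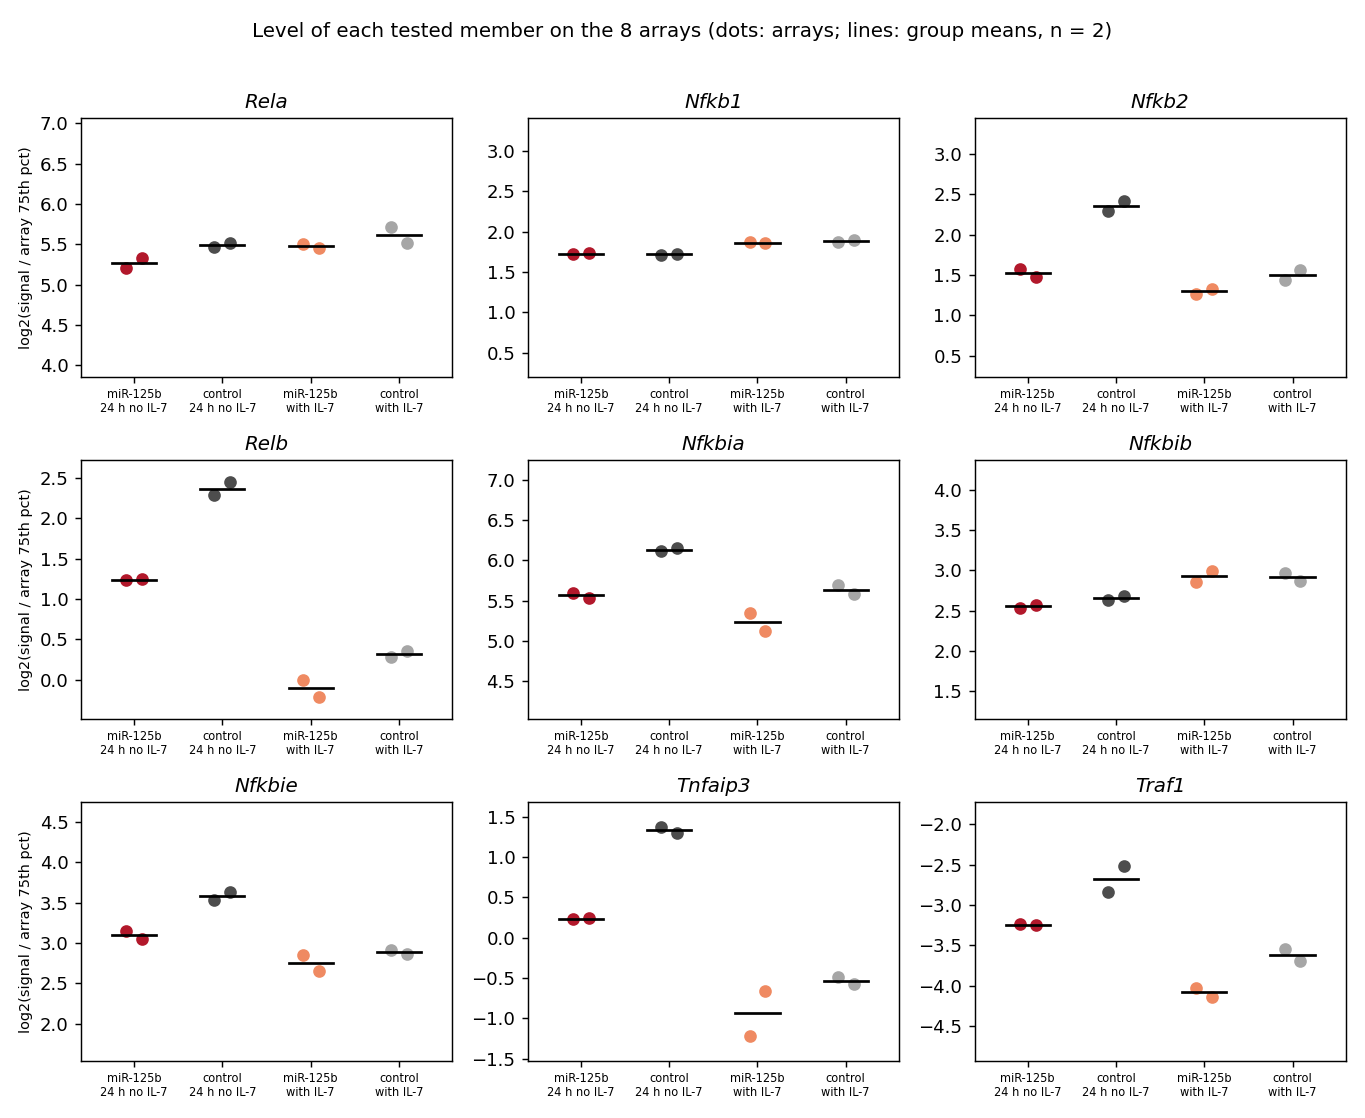
Level of the 9 tested members on each of the 8 arrays, as log2 of the signal over the array's 75th percentile, on axes that span the same width for every gene. Dots are arrays and lines are group means (n = 2). For Relb, Tnfaip3, Nfkb2, Nfkbia, Nfkbie and Traf1 the control arrays without IL-7 are the highest, while Rela and Nfkb1 stay nearly level.

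Without IL-7, RNA of 5 of the 9 tested members fell in miR-125b cells relative to control cells, and none rose. These were Relb, Tnfaip3, Nfkb2, Nfkbia and Nfkbie, that is both genes of the non-canonical branch, 2 IkappaB genes and the deubiquitinase gene. Of all genes tested in this comparison, 3.49% were called lower and 2.96% higher, with limma and a Benjamini-Hochberg adjusted p under 0.05. The median log2 fold change was -0.57 over the 9 members and -0.011 over all genes.

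In log2 units Relb fell by 1.13 (SE 0.10, adjusted p = 0.0102), so that the level in miR-125b cells was 2.18-fold lower. Tnfaip3 fell by 1.1 (SE 0.18, adjusted p = 0.0299), a 2.14-fold lower level. Nfkb2 fell by 0.83 (SE 0.087, adjusted p = 0.0126). The changes of the IkappaB genes were smaller: Nfkbia fell by 0.57 (SE 0.10, adjusted p = 0.0346) and Nfkbie by 0.48 (SE 0.098, adjusted p = 0.0466). Traf1 had a log2 fold change of -0.57 (SE 0.13) that missed the threshold at an adjusted p of 0.0571. It was called lower with a normexp background correction (adjusted p = 0.0203) and when only probes above background on all 8 arrays were tested (adjusted p = 0.0300), which gave 6 members called in each case. Rela (-0.22, 95% interval -0.46 to 0.011), Nfkbib (-0.10, interval -0.31 to 0.099) and Nfkb1 (0.0092, interval -0.15 to 0.17) were not called.

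These calls depended on each of the 4 arrays without IL-7. Leaving out any one of them leaves 1 array in its group, and no call of a member was kept. Calls over all genes fell as well in such fits, so the loss was not particular to the members. The log2 fold changes of Relb and Nfkb2 stayed between -1.21 and -0.78. Leaving out either control array with IL-7 left 2 members called, and the 3 called members were Relb, Tnfaip3 and Nfkb2 when levels were set against the array median instead.

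With IL-7 in the medium, 0 of the 9 members passed the limma threshold, against 1.46% of all genes called lower and 1.13% called higher. At an unadjusted p under 0.05 there were 3 members, and 4266 genes in all. Their values were -0.47 for Traf1 (SE 0.13, adjusted p = 0.118), -0.42 for Relb (SE 0.10, adjusted p = 0.0959) and -0.40 for Nfkbia (SE 0.10, adjusted p = 0.102). Tnfaip3 had a log2 fold change of -0.41 (95% interval -0.85 to 0.032) and Nfkb2 one of -0.20 (interval -0.42 to 0.012). Nfkbie (-0.13), Rela (-0.14), Nfkb1 (-0.014) and Nfkbib (0.0065) were nearer to 0. Calls appeared under other settings, Nfkbia with another background correction and Nfkbia together with Relb when the variance was allowed to depend on the level.

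Averaged over both media, 6 of the 9 members were lower in miR-125b cells and none was higher, while 8.55% of all genes were called lower and 7.26% higher. Relb fell by 0.78 (SE 0.073, adjusted p = 0.0046), Tnfaip3 by 0.75 (SE 0.13, adjusted p = 0.0174), and Nfkb2 by 0.52 (SE 0.062, adjusted p = 0.00787). Traf1 fell by 0.52 (SE 0.089, adjusted p = 0.0181), Nfkbia by 0.48 (SE 0.071, adjusted p = 0.0125), and Nfkbie by 0.31 (SE 0.069, adjusted p = 0.0368). The median log2 fold change was -0.48 over the 9 members and -0.025 over all genes. The miR-125b mean was below the control mean for all 9 members in this average, although the values of Rela (-0.18), Nfkbib (-0.049) and Nfkb1 (-0.0026) did not pass. The value of Nfkb1 changed sign in 6 of 17 other settings. The calls of Relb and Nfkb2 held in all 17 other settings tried, whereas Nfkbie lost its call in 10 of them, and Tnfaip3 and Traf1 in 5 each. The count of called members was 3 without the first control or the first miR-125b array lacking IL-7, and 2 without the second miR-125b array lacking it.

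**Figure D3:**
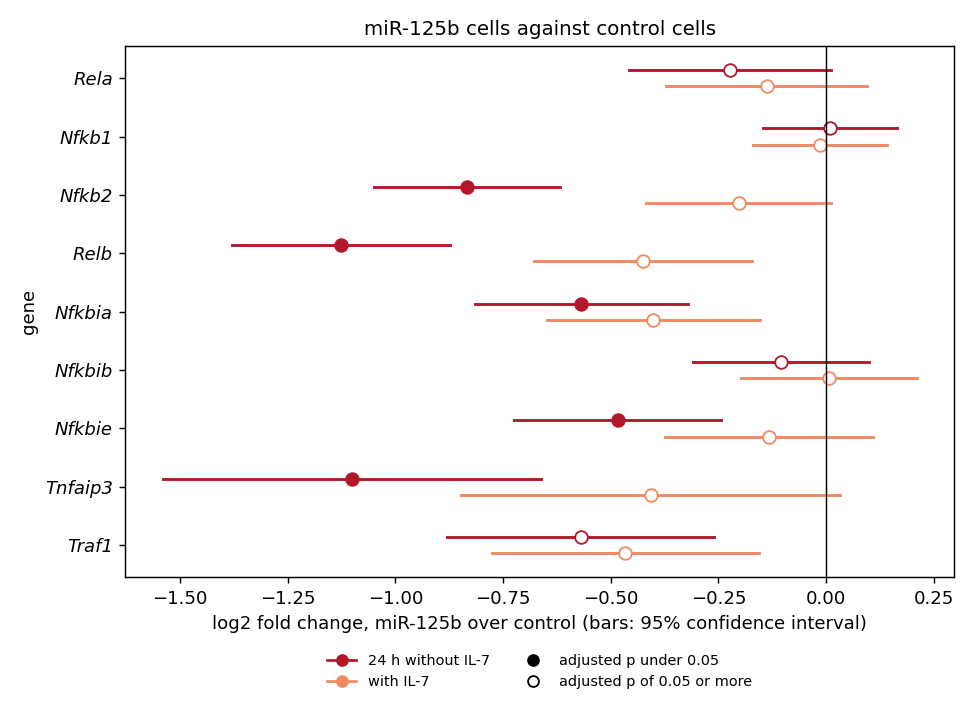
Log2 fold change of each tested member in miR-125b cells over control cells, for 24 h without IL-7 (dark red) and with IL-7 (orange), with 95% confidence intervals as bars and filled points where the adjusted p is under 0.05. The 5 filled points, all without IL-7, are Nfkb2, Relb, Nfkbia, Nfkbie and Tnfaip3.

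After 24 h without IL-7, 5 of the 9 tested members were higher in miR-125b cells and 6 were higher in control cells than with IL-7. In miR-125b cells 1 was lower, against 20.3% of all genes called higher and 32.1% called lower. In control cells 1 was also lower, against 20.0% of all genes called higher and 34.2% called lower. The split depended on the scaling: set against the array median, 3 members were higher and 3 lower in miR-125b cells, and 4 higher and 3 lower in control cells. The median log2 change over the members was 0.33 in miR-125b cells and 0.70 in control cells, beside -0.11 and -0.13 over all genes.

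Relb rose by 1.34 in miR-125b cells (SE 0.10, adjusted p = 0.0016) and by 2.04 in control cells (SE 0.10, adjusted p = 0.000564), which are 2.54-fold and 4.13-fold changes. Tnfaip3 rose by 1.17 in miR-125b cells (SE 0.18, adjusted p = 0.00418) and by 1.87 in control cells (SE 0.18, adjusted p = 0.00152), or 2.26-fold and 3.65-fold. These were the largest changes among the members in each kind of cell. Nfkb2 had a change of 0.22 in miR-125b cells (SE 0.087, adjusted p = 0.077), which was not called, and rose by 0.85 in control cells (SE 0.087, adjusted p = 0.00164).

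Of the inhibitors, Nfkbie rose by 0.35 in miR-125b cells (adjusted p = 0.0282) and by 0.70 in control cells (adjusted p = 0.00289). Nfkbia rose by 0.33 in miR-125b cells (adjusted p = 0.0367) and by 0.50 in control cells (adjusted p = 0.00914). Nfkbib went the other way and fell by 0.37 in miR-125b cells (adjusted p = 0.0132) and by 0.26 in control cells (adjusted p = 0.0401). Traf1 rose by 0.84 in miR-125b cells (adjusted p = 0.00409) and by 0.94 in control cells (adjusted p = 0.00256). With a normexp background correction, however, its change was -0.080 in miR-125b cells and 0.070 in control cells, neither of them called.

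The canonical subunits were not called on withdrawal. Rela changed by a log2 value of -0.22 in miR-125b cells (95% interval -0.45 to 0.018) and -0.13 in control cells (interval -0.37 to 0.10). Nfkb1 had -0.14 in miR-125b cells (interval -0.29 to 0.019) and -0.16 in control cells (interval -0.32 to -0.0042), with adjusted p of 0.119 and 0.0762. Both were called lower when levels were set against the array median, a scaling that also lowered the median of all genes by 0.25 in miR-125b cells and by 0.33 in control cells. On that scaling Nfkbia (0.082 in miR-125b cells and 0.16 in control cells) and Nfkbie (0.10 and 0.36) were no longer called, while Relb and Tnfaip3 were called under each of the 18 settings. Leaving out 1 miR-125b array, either the second with IL-7 or the first without it, left 3 members called in miR-125b cells.

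**Figure D4:**
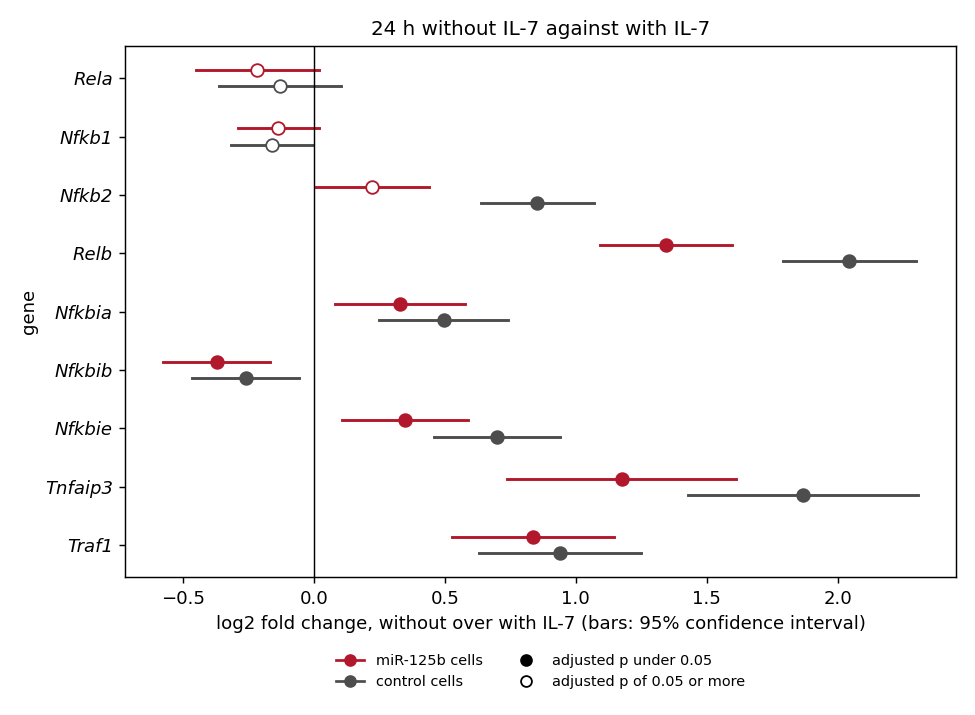
Log2 fold change of each tested member for 24 h without IL-7 over with IL-7, in miR-125b cells (red) and in control cells (grey), with 95% confidence intervals as bars and filled points where the adjusted p is under 0.05. Relb and Tnfaip3 lie farthest to the right in each kind of cell, Nfkb2 is filled in control cells and open in miR-125b cells, and Nfkbib lies to the left of 0.

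Whether the withdrawal response itself differed between miR-125b and control cells was tested as a difference of differences. With limma, 0 of the 9 members and 0% of all 20674 genes passed in either direction. The median difference was -0.17 over the 9 members and 0.022 over all genes. At an unadjusted p under 0.05 there were 4 members and 1218 genes. These 4 were Relb (-0.70, 95% interval -1.06 to -0.34, adjusted p = 0.527), Tnfaip3 (-0.69, interval -1.31 to -0.072, adjusted p = 0.807), Nfkb2 (-0.63, interval -0.94 to -0.33, adjusted p = 0.488) and Nfkbie (-0.35, interval -0.69 to -0.010, adjusted p = 0.829). The remaining values were -0.17 for Nfkbia, -0.11 for Nfkbib, -0.10 for Traf1, -0.086 for Rela and 0.024 for Nfkb1. The point estimate was thus negative for 8 of 9 members, that is, the change on withdrawal was the lower one in miR-125b cells, but with this number of arrays no difference in response was called for any of them under any of the 17 settings.

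Relb, Nfkb1 and Nfkbib were each covered by more than 1 probe, and the probes did not all read alike. In a fit with every probe on its own, the second Relb probe, at chr7:20191773-20191832 and sharing 9 bases with the first, fell by 1.06 in miR-125b cells without IL-7 (adjusted p = 0.0126), and rose on withdrawal by 1.53 in miR-125b cells and by 2.07 in control cells. The third Relb probe lies at chr7:20203058-20203117 and was named Relb in only one of the 2 versions of the array grid, the other listing a transcript identifier. Its level was -2.26 and -2.05 in miR-125b cells and -2.07 and -2.18 in control cells without IL-7, and -2.51 and -2.05 in miR-125b cells and -2.21 and -1.98 in control cells with IL-7. This probe was called in 0 of the 6 comparisons, with log2 fold changes for miR-125b of -0.029 without and -0.19 with IL-7. The statements on Relb therefore rest on the 2 neighbouring probes.

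The second Nfkb1 probe, at chr3:135247621-135247680, read 0.81 and 0.66 in miR-125b cells and 0.59 and 0.71 in control cells without IL-7. With IL-7 it read 0.47 and 0.17 in miR-125b cells and 0.32 and 0.19 in control cells. It rose on withdrawal by 0.42 in miR-125b cells (adjusted p = 0.0424) and by 0.39 in control cells (adjusted p = 0.0492), opposite in sign to the first probe, so that no direction can be given for Nfkb1 on withdrawal. Between the vectors this probe was not called either, at 0.086 without and 0.061 with IL-7.

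For Nfkbib, a second probe spanning chr7:29545252-29546647 read 0.98 and 1.07 in miR-125b cells and 1.12 and 1.22 in control cells without IL-7, and 1.42 and 1.54 in miR-125b cells and 1.58 and 1.51 in control cells with IL-7. It fell on withdrawal by 0.45 in miR-125b cells (adjusted p = 0.009) and by 0.38 in control cells (adjusted p = 0.0154). The third, dimmer probe at chr7:29543270-29543329 had changes of -0.26 in miR-125b cells and -0.091 in control cells that were not called. In control cells the call of the first probe was lost in 12 of 18 other settings.

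**Figure D5:**
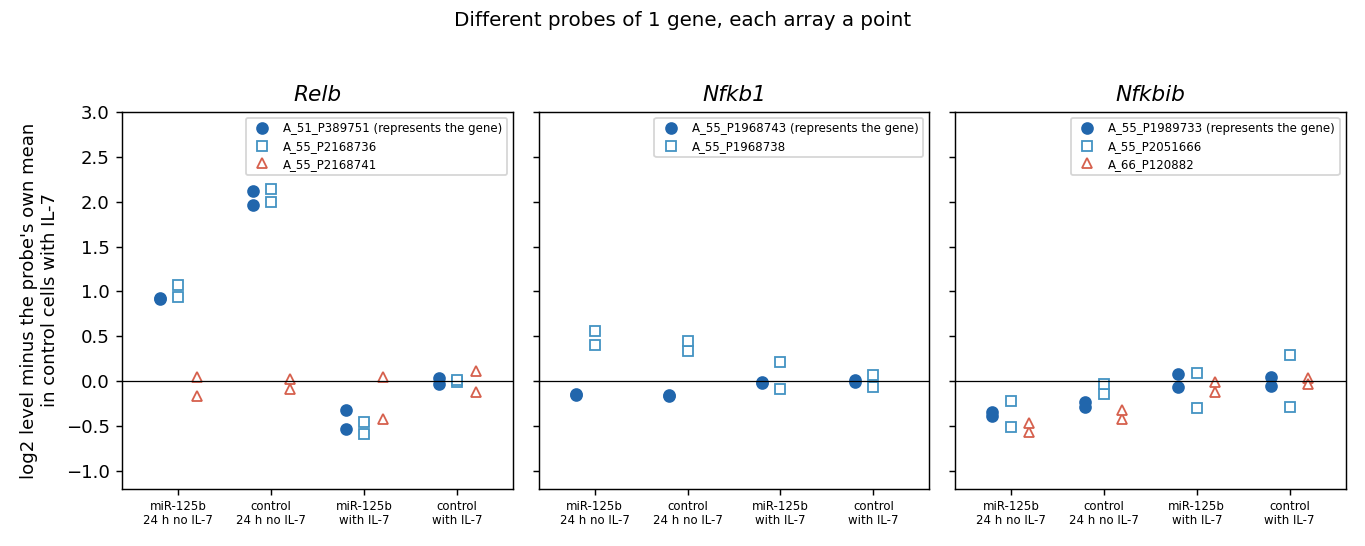
Levels of the different probes of Relb, Nfkb1 and Nfkbib on each array, each probe set to 0 at its own mean in control cells with IL-7 (log2 scale, 1 symbol per array). The third Relb probe stays near 0 in all groups while the other 2 rise without IL-7, and the 2 Nfkb1 probes part in opposite directions without IL-7.

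Genes around the members were described by lists of the pathway's other parts. Among 10 genes of the IKK complex and the kinases that activate it, all measured, 0 were called between the vectors in either medium, and in the average only Tab3, a TAK1-binding adaptor, was lower (-0.27). Of all genes, 2.96% were called higher and 3.49% lower without IL-7, 1.13% and 1.46% with it, and 7.26% and 8.55% in the average. On withdrawal, 0 of the 10 were higher and 2 were lower in miR-125b cells, against 20.3% and 32.1% of all genes. The 2 were Tab1 (-0.50) and Map3k7, which encodes TAK1 (-0.29). In control cells 1 was higher and 1 was lower, against 20.0% and 34.2% of all genes. There Tab1 (-0.48) was lower and Map3k14, which encodes the kinase NIK of the non-canonical branch, was higher (0.32, SE 0.088, adjusted p = 0.0247).

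Of 15 receptors that signal to NF-kappaB, 10 were measured. Between the vectors without IL-7, the lipopolysaccharide receptor gene Tlr4 was higher (1.06, adjusted p = 0.0322) and Tnfrsf1b, a TNF receptor gene, was lower (-0.85, adjusted p = 0.0425) in miR-125b cells, and with IL-7 none was called. Of all genes, 2.96% were called higher and 3.49% lower without IL-7, and 1.13% and 1.46% with it. On withdrawal 2 of the 10 rose and 5 fell in miR-125b cells, against 2 and 4 in control cells, with median log2 changes of -0.21 and -0.17. Over all genes the medians were -0.11 and -0.13, with 20.3% higher and 32.1% lower in miR-125b cells and 20.0% and 34.2% in control cells. Among the receptors that fell, Tlr4 changed most in control cells, by 1.71 (adjusted p = 0.00166). The receptors that rose were Tnfrsf13c, the BAFF receptor gene, by 0.58 in miR-125b cells and by 1.29 in control cells, and Cd40, a costimulatory receptor that engages the non-canonical branch. Cd40 was well above background on 0 arrays of control cells with IL-7. By group means it was at least 26.7-fold higher without IL-7 in these cells (limma adjusted p = 0.00494). The 95% interval of its log2 fold change was wide, from 2.80 to 6.77. In miR-125b cells with IL-7 it was above background on 1 of 2 arrays.

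All 18 adaptors and ubiquitin ligases upstream of IKK were measured. Without IL-7, 2 were lower in miR-125b cells, against 3.49% of all genes. These were Traf6 (-0.88, adjusted p = 0.0140) and Ripk1 (-0.48, adjusted p = 0.0308), which encode a ubiquitin ligase of the Toll-like receptor branch and a kinase of the TNF receptor complex. With IL-7 Traf6 alone was lower (-0.69, adjusted p = 0.0369), against 1.46% of all genes. In the average 5 of the 18 were lower, against 8.55% of all genes, with Traf6, Traf5 (-0.48) and Ripk1 (-0.42) changed most. The other 2 Traf6 probes did not show the fall of Traf6, with -0.022 and -0.048 without IL-7 and 0.18 and 0.30 with it. On withdrawal 3 of the 18 rose and 8 fell in miR-125b cells, against 5 and 5 in control cells, beside the same shares of all genes (20.3% and 32.1%, 20.0% and 34.2%), with median log2 changes of -0.086 and -0.13. With 1 probe per gene, the ubiquitin ligase genes Birc2 (0.60 in miR-125b cells, 0.63 in control cells) and Birc3 (0.57, 0.73) and the adaptor gene Bcl10 (0.56, 0.59) were the largest increases. The other 2 Traf6 probes rose more, by 0.87 and 0.65 in miR-125b cells (adjusted p = 0.00756 and 0.0107) and by 1.08 and 1.0 in control cells (adjusted p = 0.00371 and 0.00281). Among the decreases, the kinase gene Irak2 fell by 0.79 in miR-125b cells and by 1.06 in control cells.

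Other inhibitors and atypical IkappaB proteins were measured for 14 of 15 listed genes. Without IL-7, Tnip2, which encodes a binding partner of the Tnfaip3 protein, was higher in miR-125b cells (0.76, adjusted p = 0.0179), and Nfkbid, an atypical IkappaB gene (-0.67, adjusted p = 0.0263), and the deubiquitinase gene Otud7b (-0.51, adjusted p = 0.0381) were lower. With IL-7 the calls were Tnip2 (0.64, adjusted p = 0.0408) and Otud7b (-0.71, adjusted p = 0.0318). Of all genes, 2.96% were called higher and 3.49% lower without IL-7, and 1.13% and 1.46% with it. Nkiras2, which encodes a small Ras-like inhibitor, was called in neither medium (0.34 without and 0.20 with IL-7). On withdrawal 5 of the 14 rose and 3 fell in miR-125b cells, against 7 and 4 in control cells, with median log2 changes of 0.080 and 0.23 and the same shares of all genes (20.3% and 32.1%, 20.0% and 34.2%). The inhibitory deubiquitinase gene Cyld rose by 0.76 in miR-125b cells and by 0.89 in control cells, and Nfkbiz, an atypical IkappaB gene, by 1.32 and 1.21. Among the decreases, Tnip2 fell by 0.32 in miR-125b cells and by 0.44 in control cells.

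Of 29 listed NF-kappaB target genes other than the members, 13 were measured. Without IL-7, 0 were higher and 2 were lower in miR-125b cells, against 2.96% and 3.49% of all genes. The 2 were the stress-response gene Gadd45b (-1.0, adjusted p = 0.0224) and the transcription factor gene Irf1 (-0.66, adjusted p = 0.0116). With IL-7 none of the 13 was called, against 1.13% of all genes called higher and 1.46% lower. In the average 3 of the 13 were higher, against 7.26% of all genes, and 4 were lower, against 8.55%. The 3 were Icam1 (0.44), Cd44 (0.30) and Stat5a (0.28), and the 4 included Gadd45b (-0.63) and Irf1 (-0.51). The cytokine gene Lta was also called lower there (adjusted p = 0.0129), but it was above background on 0 of the 2 miR-125b arrays with IL-7, so no fold is given. On withdrawal 5 of the 13 rose and 3 fell in each kind of cell, beside the same shares of all genes (20.3% and 32.1%, 20.0% and 34.2%), with median log2 changes of 0.030 in miR-125b cells and 0.026 in control cells. The chemokine receptor gene Ccr7 rose by 2.18 in miR-125b cells and by 2.43 in control cells, and the cytokine gene Ltb by 1.15 and 2.16. In the same order, Gadd45b fell by 1.24 and 0.49, and Sod2 by 0.78 and 0.71. In the test of the difference of the withdrawal response, 0 genes of any of these 5 lists were called.

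The genes whose levels followed Tnfaip3 most closely over the 8 arrays were Eloa (Pearson r = 0.989), Ubn2 (0.988), Rbm33 (0.987), Rnf25 (0.986) and Socs7 (0.986). For Nfkb2 they included Kdm1b (0.993), Whrn (0.991), Phf14 (0.986) and Msh3 (0.981). These are descriptions among 11865 other genes above background on all arrays, over points that share a slide within each medium.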

How the data were processed

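RNA was measured on 8 single-colour Agilent arrays, 2 for each of 4 groups. Per the labels' protocols, the culture medium held 7.5% FCS, puromycin was used at 1 µg/ml, and labelling started from 100 ng of RNA. Per the file headers, the scanner files hold linear intensity values of each spot (the processed signal), background-subtracted and not normalized between arrays, made with Agilent Feature Extraction 10.7.3.1 (with IL-7) or 10.7.1.1 (without). The submitters' processing notes list 10.7.1.1 for every array. Per the file headers they also hold spot marks of another kind (other: well above background, saturated, not uniform), and 0 spots were saturated. The authors also deposited a normalized table of intensity values, which served as an alternative on a log2 scale. Its columns share a median of 21.7, and after a log2 transform each deposited column correlated with its own scanner file at r of at least 0.999. The files held 0 columns of other series.

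Of 62976 spots, 3671 control spots were left out, spots of a probe were averaged, and 58 probes marked as not uniform were dropped. A level is log2 of the signal minus log2 of the 75th percentile of its array, with no pseudocount. The filter required a probe to be well above background on each array of 1 or more groups, which left 29807 probes, and a gene was represented by its kept probe with the highest mean. Names were updated from RefSeq by accession for 27235 probes, by symbol for 3581 and by synonym for 565, and 24300 kept the files' names.

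All 20674 genes were fitted with limma 3.58.1 (R 4.3.3) as 4 group means over the 8 arrays, with 4 residual degrees of freedom and two-sided p adjusted by Benjamini-Hochberg in each of 6 comparisons. A gene was called at an adjusted p under 0.05, and intervals cover 95%. A fold against a group with no array above background is a bound on the ratio of group means. It was set on each dim array by its lowest signal above background or by the probe's signal where that is higher. The bound does not take in the spread between arrays. The fit was tested on simulated data. The number of arrays limits the precision. Alternatives changed the background correction (normexp, offset 50), scaling, filter, probe choice, variance model, arrays in the fit and replicate block, and left out each array in turn.

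The comparisons share arrays, so their values are set side by side only. The members and the gene lists were chosen with earlier results of these data known. Named genes were all members with every probe, up to 3 called genes per direction, list and comparison with the largest change, Traf6 and Nkiras2, and the 5 genes most like Tnfaip3 and Nfkb2. A few genes that this rule names are not reported here. Promoters and the microRNA are from RefSeq tables on GRCm38.p6, searched in Python, while positions of probes (mm9) come from the scanner files.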

Additional observations from a re-analysis of the deposited data

How the results depend on the processing

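Up to 18 other settings were tried for each comparison. Relb and Tnfaip3 kept their calls on withdrawal of IL-7 in each kind of cell in all 18, Nfkb2 in control cells in all 18, and Relb and Nfkb2 in the average of the vector comparison in all 17. The only called value that changed sign was Traf1 on withdrawal in miR-125b cells, at -0.080 with normexp; the cause was not tested. Without IL-7, the number of members lower in miR-125b cells was 5 in the fit described, 6 with normexp or with only probes above background on all arrays, 3 with scaling to the array median, 2 without the filter, 3 with only the 4 arrays of the groups, 2 with the replicate block, and 0 to 5 when an array was left out. With IL-7 it was 0, but 1 with normexp and 2 with a mean-variance trend. In the average it was 6, but 3 with scaling to the median and 2 to 6 with an array left out, and on withdrawal in miR-125b cells 6, of which 5 were higher, but 3 without the filter and 3 to 6 with an array left out. Scaled to the median, the members called on withdrawal split into 3 higher and 3 lower in miR-125b cells and 4 higher and 3 lower in control cells.

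Replicate numbers were not shown to pair the samples: deviations of same-numbered arrays correlated at -0.098 to 0.11. With the replicate block, 17 genes were called with IL-7, 454 without and 2175 in the average, against 534, 1332 and 3267 without the block. With IL-7 the count of genes was 216 scaled to the median, 1 without the filter, 914 with probes above background on all arrays, 0 with only 4 arrays, 1489 with the trend, and 0 to 140 with an array left out. Without IL-7 it was 2659 with normexp, 857 scaled to the median, 2070 after quantile normalization, 607 without the filter, 496 with only 4 arrays, 2622 with the trend, 2064 with the deposited values, and 3 to 1138 with an array left out. The average gave 1403 genes without the filter and 994 to 2607 with an array left out. Withdrawal gave 7173 to 10705 genes in miR-125b cells and 7242 to 11076 in control cells with an array left out. The difference of responses gave 5 genes with normexp, 1 each with scaling to the median, quantile normalization, the trend and the deposited values, and 0 to 3 with an array left out. Scaling to the median raised the median of all genes by 0.19 without IL-7 and moved the share of calls that were higher to 78.3% from 45.9% there, to 61.6% from 43.6% with IL-7, and to 77.2% from 45.9% in the average. On withdrawal that share was 21.6% in miR-125b cells and 16.7% in control cells after that scaling, against 38.7% and 36.9%, and 24.9% and 25.2% with normexp.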
